A study of Mus musculus with 8 samples.

Results

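The genes described here are 6 genes of the reelin pathway and of Cajal-Retzius cells, *Reln*, *Vldlr*, *Lrp8*, *Dab1*, *Trp73* and *Calb2*, chosen by name from the 33971 genes of the deposited table, where all 6 were found and all 6 had enough reads to be tested. Poly-A selected RNA of whole brains from wild-type (WT) mouse embryos at E14.5 was sequenced, with 4 brains from dams on a choline-deficient diet (CDD) and 4 brains from dams on a normal chow diet (ND). Both parents were WT in both groups, and the diet of the mother is the difference between the groups that the labels give. The labels start the diet on the day of mating, while another description within the study places its start before mating. How many dams and litters the embryos came from is not given, and brains of 1 diet may come from littermates, so p-values measure the spread between these brains. A difference between dams or litters therefore cannot be told apart from a difference between diets. The comparison asks which genes of the embryonic brain differ when the maternal diet lacks choline.

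Reelin is a large secreted glycoprotein that guides the layering of the developing cortex. In the marginal zone at the surface of the early cortex it is released by Cajal-Retzius cells, among the earliest neurons of the cortex, many of which come from the cortical hem. It binds the lipoprotein receptors VLDLR and APOER2, the product of *Lrp8*, on migrating neurons, and the adaptor DAB1 bound to the receptor tails is then phosphorylated by kinases of the Src family, and is later degraded. *Trp73*, which encodes the p53 relative p73, and *Calb2*, which encodes the calcium-binding protein calretinin, are used as markers of Cajal-Retzius cells. Both are also expressed elsewhere, *Trp73* in choroid plexus and multiciliated cells and *Calb2* in interneurons, olfactory mitral cells and neurons of the thalamus and hindbrain. *Reln* is likewise expressed outside the cortex, among others in the cerebellar anlage.

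Library totals lay between 31770217 and 43121170 counted reads, and each of the 6 genes had between 585 and 17202 reads in every brain. Expression is given as CPM, the count relative to the total of the TMM-scaled library, and the diets were compared with edgeR's quasi-likelihood test, with Benjamini-Hochberg adjustment over the 19367 genes tested and an adjusted p-value under 0.05 as the threshold. Log2 fold changes are those of CDD over ND, with the standard error (SE) or the 95% interval of the fit. CDD replicate 2 stood apart by genes of the caudal hindbrain and spinal cord: *Hoxa5* was at 33.1 CPM, *Hoxb5* at 23.8 CPM and *Hoxb8* at 11.0 CPM there and at 0 CPM in the other 7 brains, and *Hoxc5* was at 5.71 CPM there and at 0.0625 CPM or less elsewhere. CDD replicate 4 differed from the other CDD brains in its counts, with chi-square values of 10.1 to 22.7 per degree of freedom, against 6.04, 11.8 and 15.1 among the other CDD brains, the higher 2 being those of CDD replicate 2, and 3.76 to 7.60 between ND brains. Results are therefore given with each of these brains left out where that bears on them. The defining markers of brain tissue were abundant, with *Tubb3*, a neuronal tubulin gene, at 1740 to 1990 CPM in CDD and at 1830 to 1890 CPM in ND brains.

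Of the 6 genes, 1 was lower in CDD brains and 0 were higher at an adjusted p-value under 0.05, where 4.59% of all genes tested were lower, 4.24% higher and 8.83% either. *Calb2* fell by 20.1%, and its diets did not overlap, as was the case for 15.0% of all genes tested (7.39% with CDD lower and 7.65% with CDD higher). *Reln*, *Vldlr*, *Lrp8*, *Dab1* and *Trp73* did not pass the threshold, and their log2 fold changes lay between -0.14 and 0.08. The count of genes called lower was 1 without CDD replicate 2 and 2 (*Calb2* and *Reln*) without CDD replicate 4. The median over the 6 genes was -0.05, and that over all genes tested was 0.00. In whole brain RNA, fewer cells of a type and less RNA per cell cannot be told apart.

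**Figure D1:**
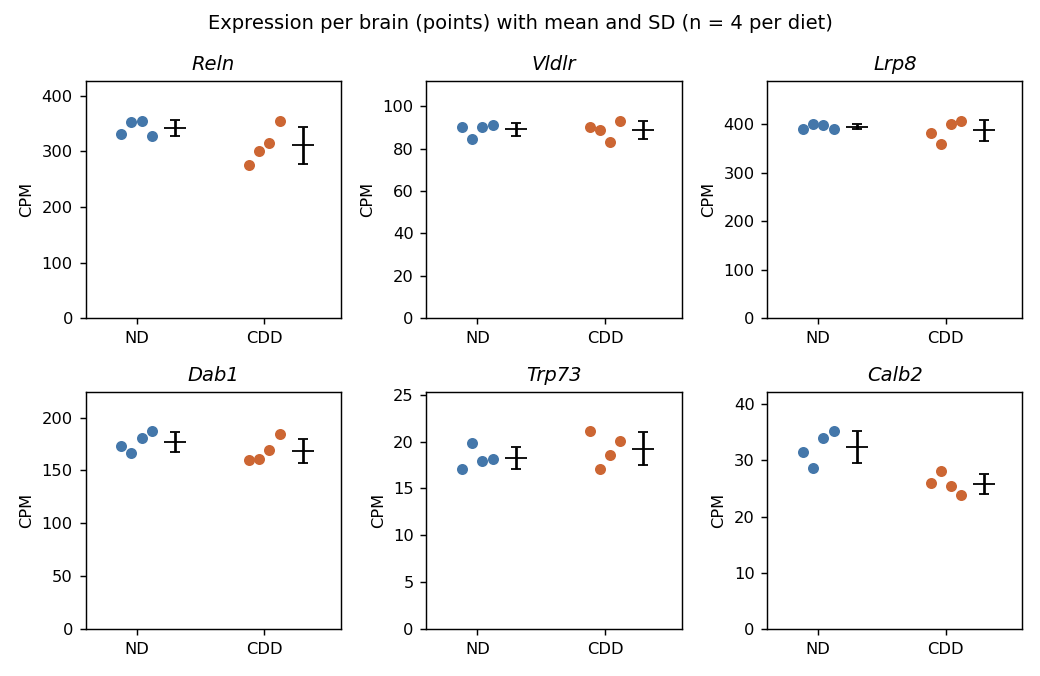
Expression of the 6 genes in CPM (vertical axes, from 0) in each ND brain (blue) and CDD brain (orange), in replicate order from left to right, with the mean and SD (n = 4) beside the points. The CDD brains lie below all ND brains for *Calb2* (23.9 to 28.1 against 28.7 to 35.2 CPM) and overlap with them for the other 5 genes.

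The level of each gene relative to its length was compared with FPKM (fragments relative to gene length and library size). The lengths are those of the authors' table, 23738 bases for *Reln*, 7908 for *Dab1* and 1743 for *Calb2*. The transcripts present in these brains may be shorter, so the order of the genes depends on the lengths used. *Lrp8* had the highest level, with a mean of 30.7 FPKM over the 8 brains, above that of 92.1% of the protein-coding genes of the table. It was followed by *Dab1* (21.7 FPKM), *Calb2* (16.6 FPKM), *Reln* (13.7 FPKM), *Vldlr* (8.79 FPKM) and *Trp73* (3.37 FPKM), the last above 47.7% of protein-coding genes. The order of neighbours was the same in all 8 brains except that of *Calb2* and *Reln*, whose ranges overlapped and where *Calb2* was the higher in 7 of 8 brains. The exception was CDD replicate 4, with 13.8 FPKM for *Calb2* and 15.0 FPKM for *Reln*. Of the 2 receptors, *Lrp8* had the higher RNA level in every brain.

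Promoter sequences were taken from RefSeq (GRCm38.p6) as the 250 bases before each annotated start, and a window was found for 5 of the 6 genes, *Calb2* being the exception. They are printed for *Reln*, the ligand, and for both starts of *Trp73*, since its reads were counted per gene and a count therefore adds the transcripts from both. The upstream start of *Trp73* gives the full-length TAp73 and the internal one the shortened delta-N form. Each sequence is given 5' to 3' on the minus strand, on which both genes lie, with CG dinucleotides in capitals.
Reln, chr5:22344706-22344955: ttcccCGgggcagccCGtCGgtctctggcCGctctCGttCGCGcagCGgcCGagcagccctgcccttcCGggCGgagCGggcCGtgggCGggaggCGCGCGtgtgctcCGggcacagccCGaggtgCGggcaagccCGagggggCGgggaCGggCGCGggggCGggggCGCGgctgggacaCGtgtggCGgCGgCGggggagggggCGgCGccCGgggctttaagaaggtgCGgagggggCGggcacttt
Trp73, upstream start, chr4:154139876-154140125: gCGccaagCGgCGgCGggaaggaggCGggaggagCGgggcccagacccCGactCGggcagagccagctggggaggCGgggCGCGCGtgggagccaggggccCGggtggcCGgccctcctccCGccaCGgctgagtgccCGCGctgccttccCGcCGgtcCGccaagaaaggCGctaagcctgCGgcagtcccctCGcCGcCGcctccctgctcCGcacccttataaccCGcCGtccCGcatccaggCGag
Trp73, internal start, chr4:154097174-154097423: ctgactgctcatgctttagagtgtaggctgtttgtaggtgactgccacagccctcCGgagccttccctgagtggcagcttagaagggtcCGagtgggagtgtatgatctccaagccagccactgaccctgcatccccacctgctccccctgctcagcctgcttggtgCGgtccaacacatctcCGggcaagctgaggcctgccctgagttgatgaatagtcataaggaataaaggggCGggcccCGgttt
The *Reln* window held 37 CG dinucleotides, more than 97.8% of the 32851 windows of the table, whose median was 6 and of which 92.1% held at least 1. The upstream window of *Trp73* held 31 and the internal window 6. Among the other members, *Dab1* had windows with 10 and 40, *Vldlr* with 5 and 18 and *Lrp8* with 18, 5 and 2. DNA methylation was not analysed here.

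*Reln* (ENSMUSG00000042453, chromosome 5, 22089452 to 22549700, minus strand, on the build of the authors' table, which is not named and on which 2.14% of shared genes start where they do on GRCm38) encodes the ligand. It was at 275, 300, 314 and 354 CPM in CDD replicates 1 to 4 and at 331, 352, 355 and 327 CPM in ND replicates 1 to 4. In 3 of the 4 CDD brains it was below all ND brains, whereas CDD replicate 4 was within their range. The mean was 311 CPM in CDD brains, with an SD of 33.3 CPM, and 341 CPM in ND brains, with a coefficient of variation of 4.26% (n = 4 each). The log2 fold change was -0.14 (95% interval -0.27 to -0.003). The unadjusted p-value was 0.0459, and 0.199 after adjustment (edgeR), where 23.9% of all genes tested had an unadjusted p-value under 0.05. Without CDD replicate 4 the log2 fold change was -0.21 and the adjusted p-value 0.0109 by edgeR, without CDD replicate 2 they were -0.12 and 0.372, and without CDD replicate 1 they were -0.08 and 0.465. Whether *Reln* passed the threshold thus depended on a single CDD brain. The 3 genes whose log2 CPM followed *Reln* most closely over the 8 brains were *Pcdhac2* (Pearson's r = 0.973, and 0.961 after centring within each diet), *Prr12* (0.961 and 0.954) and *Ahdc1* (0.961 and 0.944), out of 15887 genes compared.

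For the receptor genes, the diets were close to each other. *Vldlr* (ENSMUSG00000024924, chromosome 19, 27193884 to 27231631, plus strand) was at 90.1, 88.6, 83.0 and 93.2 CPM in CDD and at 90.1, 84.7, 90.3 and 91.3 CPM in ND brains. The ranges of the diets lay nearly on each other. Its log2 fold change was -0.01 (95% interval -0.10 to 0.09, adjusted p = 0.953 in edgeR's test). *Lrp8* (ENSMUSG00000028613, chromosome 4, 107659066 to 107734037, plus strand) was at 382, 360, 400 and 408 CPM in CDD and at 391, 401, 399 and 390 CPM in ND brains. The CDD brains lay on both sides of the narrow ND range. Its log2 fold change was -0.03 (95% interval -0.13 to 0.07, adjusted p = 0.778 in edgeR's test) and 0.005 without CDD replicate 2. Closest in pattern were *Sertm1* (r = 0.947, 0.961 within diets), *Rpl17-ps10* (0.943 and 0.943) and *Trappc2* (0.939 and 0.943) for *Vldlr*, and *Celsr3* (0.987 and 0.986), *Gm42778* (0.980 and 0.979) and *Gm9987* (0.975 and 0.973) for *Lrp8*. *Rpl17-ps10* is a ribosomal protein pseudogene whose reads can be shared with its parent gene, so its value is uncertain.

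The adaptor gene *Dab1* (ENSMUSG00000028519, chromosome 4, 103476556 to 104602041, plus strand) was at 160, 161, 169 and 184 CPM in CDD and at 173, 166, 181 and 187 CPM in ND brains. As for *Reln*, the highest CDD value was that of replicate 4 and the lowest that of replicate 1. CDD brains had a mean of 169 ± 11.3 CPM and ND brains one of 177 ± 9.18 CPM (SD, n = 4 each). The log2 fold change was -0.07 (95% interval -0.17 to 0.04, adjusted p = 0.455 in edgeR's test). It was -0.11 without CDD replicate 4 (adjusted p = 0.109 by edgeR) and -0.04 without CDD replicate 2 (adjusted p = 0.711). *Mical3* (r = 0.965, 0.957 within diets), *Tanc2* (0.959 and 0.957) and *Syn3* (0.948 and 0.940) followed *Dab1* most closely. Within diets, the r of *Reln* was 0.681 with *Lrp8*, 0.598 with *Dab1* and 0.0762 with *Vldlr*. With the Cajal-Retzius markers it was 0.0806 for *Trp73* and -0.476 for *Calb2*, and *Trp73* and *Calb2* had an r of -0.616 with each other. These values are a description over 8 brains. The brains differed in library total and, for CDD replicate 2, in genes of the caudal hindbrain and spinal cord. CDD replicate 4, which differed from the other CDD brains in its counts, had the highest CDD values of *Reln*, *Vldlr*, *Lrp8* and *Dab1* (354, 93.2, 408 and 184 CPM). It also had the lowest of *Calb2* (23.9 CPM), and r without this brain was not computed.

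Of the Cajal-Retzius markers, *Trp73* (ENSMUSG00000029026, chromosome 4, 154140706 to 154224665, minus strand) was at 21.1, 17.1, 18.6 and 20.1 CPM in CDD and at 17.1, 19.9, 17.9 and 18.1 CPM in ND brains. The diets overlapped, with the lowest CDD value equal to the lowest ND value at this rounding. Its log2 fold change was 0.08 (95% interval -0.08 to 0.23, adjusted p = 0.582 in edgeR's test), and 0.13 without CDD replicate 2 (adjusted p = 0.319). *Adcy4* (r = 0.970, 0.982 within diets), *Dna2* (0.955 and 0.948) and *Iars2* (0.951 and 0.944) were closest to it.

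*Calb2* (ENSMUSG00000003657, chromosome 8, 110864134 to 110894842, minus strand) was at 25.9, 28.1, 25.4 and 23.9 CPM in CDD and at 31.5, 28.7, 34.0 and 35.2 CPM in ND brains. Every CDD brain was below every ND brain, although CDD replicate 2 and ND replicate 2 were close to each other. CDD brains had a mean of 25.8 ± 1.76 CPM and ND brains one of 32.3 ± 2.88 CPM (SD, n = 4 each). The log2 fold change was -0.32 (SE 0.070, 95% interval -0.47 to -0.18, adjusted p = 0.00821 in edgeR's test). A change at least this large in either direction was measured in 13.8% of all genes tested. In the 8 fits that each left out 1 brain, the log2 fold change lay between -0.38 and -0.28 and the adjusted p-value of edgeR's test between 0.00409 and 0.0499, the latter without ND replicate 3. Without CDD replicate 2 it was -0.37 (adjusted p = 0.00622). The other calcium-binding proteins of this family that neurons use, calbindin (*Calb1*) and parvalbumin (*Pvalb*), had log2 fold changes of -0.04 (edgeR, adjusted p = 0.797) and -0.43 (adjusted p = 0.50), the latter at under 1 CPM in every brain, and *S100g* had 5 reads in all. For *Trp53*, a relative of *Trp73*, the log2 fold change was 0.02 (adjusted p = 0.817), and *Trp63*, with 66 reads in all, was not tested. *Dzank1* (r = 0.994, 0.982 within diets), *Cacng5* (0.981 and 0.956) and *Clu* (0.977 and 0.918) followed *Calb2* most closely.

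**Figure D2:**
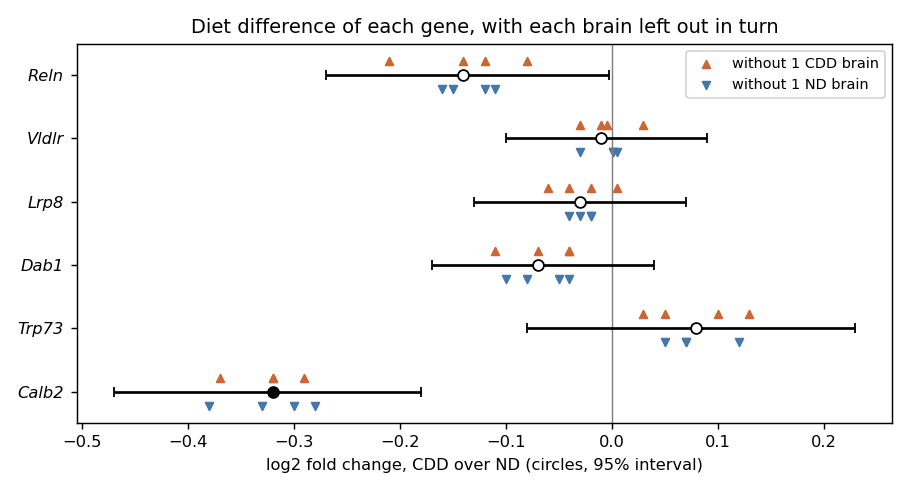
Log2 fold change of CDD over ND (horizontal axis) for each of the 6 genes, as circles with the 95% interval (filled where the adjusted p-value is under 0.05), and without each CDD brain (orange, above) or each ND brain (blue, below). The values of *Calb2* lie between -0.38 and -0.28 in the 8 fits, those of *Reln* reach from -0.21 to -0.08, and those of *Vldlr* and *Lrp8* fall on both sides of 0.

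Ratios of 2 genes within the same brain do not depend on how libraries are scaled and were compared between the diets by exact permutation (two-sided, all 70 divisions of the brains), whose smallest p-value is 0.0286. The ratio of *Reln* to *Trp73*, the ligand against a marker of the cells that make it, was 3.04, 4.08, 3.93 and 4.10 in CDD replicates 1 to 4 and 4.51, 4.14, 4.62 and 4.22 in ND replicates 1 to 4, in FPKM. All CDD ratios were below all ND ratios, with CDD replicate 1 far below and the other 3 close to the ND range. CDD replicate 1 had the lowest *Reln* (275 CPM) and the highest *Trp73* (21.1 CPM) of all brains. The genes of choroid plexus and multiciliated cells described below, where *Trp73* is also expressed, summed to 586 CPM in this brain. Most of that came from *Ttr* (439 CPM), and the sum was 267 to 401 CPM in the other brains. The part of choroid plexus in this ratio was not tested. The difference of the mean log2 ratios was -0.22 (1.91 ± 0.21 in CDD and 2.13 ± 0.076 in ND, SD, n = 4 each, exact p = 0.0286). After adjustment over 3 ratios the p-value was 0.0857, which did not pass the threshold. The exact p-value is already the smallest possible. Given the p-values of the other 2 ratios, a difference of any size would have missed the threshold, so the adjusted test cannot decide. Without CDD replicate 1 the difference was -0.11 (exact p = 0.0857). The ratio of *Reln* to *Dab1*, of ligand to adaptor, was 0.572 to 0.640 in CDD and 0.583 to 0.708 in ND brains (difference on the log2 scale -0.07, exact p = 0.343, adjusted p = 0.514 by permutation). The ratio of the receptors, *Vldlr* to *Lrp8*, was 0.262 to 0.310 in CDD and 0.266 to 0.295 in ND brains (difference 0.02, exact p = 0.686).

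**Figure D3:**
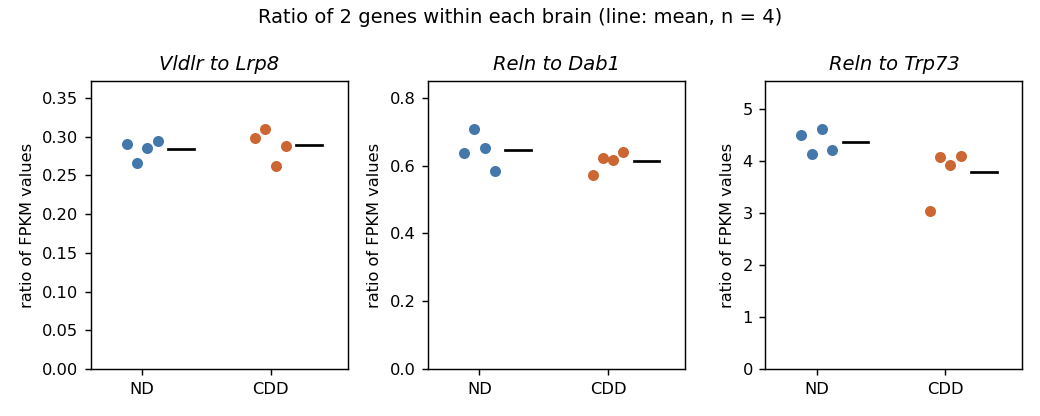
Ratio of the FPKM values of 2 genes (vertical axes, from 0) in each ND brain (blue) and CDD brain (orange), in replicate order, with the mean of 4 brains as a line. The ratio of *Reln* to *Trp73* is 3.04 in CDD replicate 1 and 3.93 to 4.10 in the other CDD brains, against 4.14 to 4.62 in ND brains, while the other 2 ratios overlap.

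Around the ligand, 10 genes of reelin-cleaving proteases, cofactors and other ligands of its receptors were tested, of which 2 were lower and 0 higher, the median being -0.12 on the log2 scale. *Clu*, which encodes clusterin, a secreted chaperone that binds both reelin receptors, was at 28.4 to 33.4 CPM in CDD and 36.0 to 41.0 CPM in ND brains, without overlap (log2 fold change -0.30, SE 0.062, adjusted p = 0.00588 in edgeR's test). This call held in 8 of 8 fits with a brain left out. *Adamts2*, which encodes a metalloprotease that can cleave reelin, was at 7.81 to 10.4 CPM in CDD and 9.53 to 12.7 CPM in ND brains (log2 fold change -0.37, adjusted p = 0.0378 in edgeR's test), and its call was lost without CDD replicate 1 or 4 or ND replicate 1, 3 or 4 (adjusted p = 0.078 to 0.143). *Thbs1*, *Apoe* and the other 6 genes of the list did not pass the threshold, although the diets did not overlap for *Thbs1* (log2 fold change -0.19, adjusted p = 0.0528) or *Apoe* (-0.36, adjusted p = 0.124). DESeq2 called 4 of the 10 lower.

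Of 10 other lipoprotein receptor genes and regulators of receptor turnover, 2 were higher and 0 lower in CDD brains. *Lrp4*, which encodes a receptor with roles at the neuromuscular junction and in Wnt signaling, was at 65.7, 66.2, 64.0 and 82.0 CPM in CDD and at 46.7, 52.8, 45.6 and 50.3 CPM in ND brains. Every CDD brain was above every ND brain (log2 fold change 0.51, SE 0.074, adjusted p = 0.00164 in edgeR's test). *Lrp2*, which encodes megalin, an endocytic receptor of the forebrain neuroepithelium, was at 17.6 ± 2.38 CPM in CDD and 13.2 ± 1.03 CPM in ND brains (SD, n = 4 each), without overlap (log2 fold change 0.42, SE 0.091, adjusted p = 0.00925). Both calls held in 8 of 8 fits with a brain left out. The median of the list was 0.00, and *Mylip*, which encodes a ubiquitin ligase that degrades lipoprotein receptors, was at -0.27 on the log2 scale (adjusted p = 0.103).

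Below DAB1, 24 genes of kinases, adaptors, small GTPases, cytoskeletal effectors and the ubiquitin ligase that removes phosphorylated DAB1 were tested. Of these, 1 was higher and 0 lower in CDD brains, 23 did not pass the threshold, and the median log2 fold change was 0.01. *Socs6*, a member of the SOCS family that recruits this ubiquitin ligase, was at 44.5, 45.6, 41.4 and 45.4 CPM in CDD and at 38.2, 39.1, 37.5 and 37.1 CPM in ND brains. The diets did not overlap (log2 fold change 0.22, SE 0.053, edgeR, adjusted p = 0.0154), and the call was lost without ND replicate 1, 3 or 4 (adjusted p = 0.0508, 0.0698 and 0.0641). For the kinase gene *Fyn* the log2 fold change was -0.06 (adjusted p = 0.389) and for *Cul5*, the scaffold of the ligase, 0.07 (adjusted p = 0.449).

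Of 9 other genes of Cajal-Retzius cells, 3 were higher and 0 lower, and the median was 0.11. *Ebf2*, which encodes a transcription factor, was at 31.4 to 42.4 CPM in CDD and 27.5 to 31.2 CPM in ND brains (log2 fold change 0.37, SE 0.078, adjusted p = 0.00855 in edgeR's test). *Nhlh2*, a basic helix-loop-helix factor gene, was at 55.3 to 67.2 CPM against 46.3 to 55.0 CPM (0.30, adjusted p = 0.00870), and *Lhx1*, a LIM homeobox gene, at 53.2 CPM or more against 46.3 to 51.4 CPM (0.29, adjusted p = 0.0155). For each of the 3 the diets did not overlap and the call held without CDD replicate 2, where the log2 fold changes were 0.30, 0.28 and 0.21. The calls of *Ebf2* and *Nhlh2* held in 8 of 8 fits with a brain left out and that of *Lhx1* was lost without ND replicate 1 or 3 (adjusted p = 0.0624 and 0.0599), and with the authors' FPKM and limma 0 of the 3 passed the threshold (adjusted p = 0.0589, 0.0577 and 0.0685). The summed level of the 9 genes was 734 to 814 CPM in CDD and 694 to 710 CPM in ND brains. The highest sum was that of CDD replicate 2, and the other CDD brains were at 734 to 781 CPM. *Ebf3* had the largest gap between the means (187 CPM in CDD and 154 CPM in ND brains). Its diets overlapped and it did not pass the threshold (adjusted p = 0.174 in edgeR's test). These genes are not particular to Cajal-Retzius cells: *Lhx1* and *Lhx5* also mark Purkinje cells, and *Tbr1* also marks cortical plate and mitral neurons.

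Of 6 genes of the cortical hem and the pallial borders, from which Cajal-Retzius cells arise, 0 were lower and 2 higher, and the median of the list was 0.33 on the log2 scale. *Wnt8b*, a Wnt ligand gene of the hem and its surroundings, was at 8.30, 6.46, 7.46 and 9.29 CPM in CDD and at 4.15, 5.78, 4.83 and 4.20 CPM in ND brains. Every CDD brain was above every ND brain (log2 fold change 0.73, SE 0.13, adjusted p = 0.00286 in edgeR's test), in 8 of 8 fits with a brain left out as well. *Lmx1a*, a LIM homeobox gene of the roof plate and hem, rose by 0.42 on the log2 scale (adjusted p = 0.0180), and its call was lost without CDD replicate 1 or ND replicate 1 or 3 (adjusted p = 0.0504, 0.0589 and 0.0893). *Wnt3a*, which marks the hem, was at 0.58 on that scale and at 1.10 to 2.78 CPM (adjusted p = 0.0730).

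*Trp73* also works in choroid plexus and multiciliated cells, and of 11 genes of these cells 4 were higher and 0 lower, with a median of 0.20. *Mcidas*, *Gmnc* and *Ccno*, which act at the start of the multiciliated cell program, had log2 fold changes of 0.86, 0.94 and 0.77 (adjusted p = 0.00996, 0.0332 and 0.0378 in edgeR's test) at levels of 0.723 to 4.83 CPM, and *Otx2* had one of 0.20 (adjusted p = 0.0327). The call of *Mcidas* was lost without ND replicate 3 (adjusted p = 0.053), that of *Otx2* without CDD replicate 1 or ND replicate 1, 3 or 4, that of *Ccno* without CDD replicate 1, 3 or 4 or ND replicate 3 or 4, and that of *Gmnc* without any brain but CDD replicates 3 and 4 (adjusted p = 0.0588 to 0.147 for these). The call of *Gmnc* was also lost with the replicate number as a block (edgeR, adjusted p = 0.0502) and with limma-voom (0.0703). The count was 3 without CDD replicate 2 and 0 without ND replicate 3. The 7 genes of the list that did not pass the threshold had log2 fold changes between -0.22 (*Kl*) and 0.48 (*Aqp1*), with *Folr1* at 0.09 and *Clic6* at 0.43. *Ttr*, the most abundant choroid plexus gene of the list and also not past the threshold, was at 149 to 439 CPM in CDD and 248 to 292 CPM in ND brains (log2 fold change 0.03). With the authors' FPKM and limma, 4 of the 14 genes called in these 6 lists passed the threshold, *Clu*, *Lrp4*, *Wnt8b* and *Mcidas*, and the adjusted p-values of the other 10, *Lrp2* among them, were 0.0577 to 0.146.

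**Figure D4:**
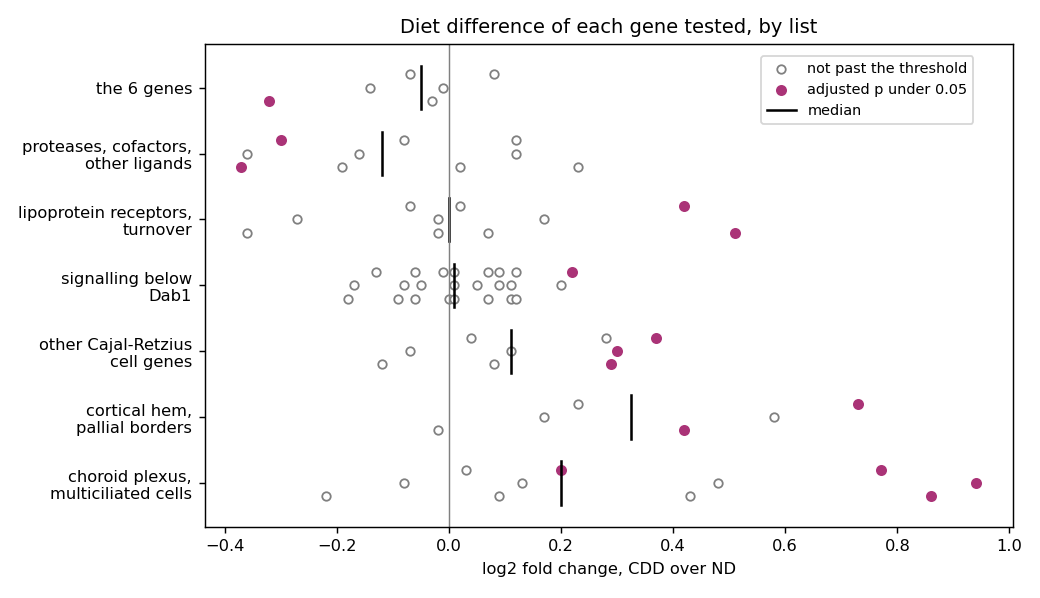
Log2 fold change of CDD over ND (horizontal axis) of each gene tested, for the 6 genes and for 6 lists of related genes (rows), filled where the adjusted p-value is under 0.05, with the median of each list as a bar. The filled points lie below 0 for the 6 genes (*Calb2*) and the proteases, cofactors and ligands (*Clu*, *Adamts2*) and above 0 in the other 5 rows.

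Cells other than Cajal-Retzius cells that express *Calb2* or *Reln* were followed by their markers. Of 6 genes of calretinin interneurons, 1 was lower, *Npas1* (log2 fold change -0.34, adjusted p = 0.0296 in edgeR's test), and their summed level was 245 to 291 CPM in CDD and 235 to 251 CPM in ND brains. Of 3 mitral cell genes tested, *Cdhr1* was lower (-0.81, adjusted p = 0.0267 in edgeR's test), at 5.46 to 7.39 CPM against 7.10 to 13.9 CPM. The summed level of the mitral list was 295 to 358 CPM in CDD and 306 to 316 CPM in ND brains. Most of it came from *Tbr1* (means of 215 CPM in CDD and 203 CPM in ND brains) and *Eomes* (110 and 97.7 CPM), and *Tbr1* also marks cortical plate neurons. *Tbx21*, a defining gene of mitral cells, was at 0.395 CPM or less in every brain. Of 7 rhombic lip genes, *Barhl1* was lower (-0.36, adjusted p = 0.0334). Of 6 Purkinje cell genes, *Lhx1* was higher. The call of *Npas1* was lost without CDD replicate 1 or 2 or ND replicate 1, 3 or 4 (adjusted p = 0.0702 to 0.108), that of *Cdhr1* without CDD replicate 1, 2 or 4 or ND replicate 1 or 4 (adjusted p = 0.0618 to 0.123), and that of *Barhl1* without CDD replicate 1 or any single ND brain (adjusted p = 0.053 to 0.0945). With the authors' FPKM and limma, these 3 genes did not pass the threshold (adjusted p = 0.0641, 0.0624 and 0.0707). The part of these cells in the result for *Calb2* was not tested.

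Markers of the wider tissue moved with the diets too. Of 8 radial glia genes 3 were higher, *Nes* (log2 fold change 0.47, adjusted p = 0.00344 in edgeR's test), *Pax6* (0.25, adjusted p = 0.00642) and *Vim* (0.21, adjusted p = 0.0183), and their summed level was 1540 to 1700 CPM in CDD and 1400 to 1480 CPM in ND brains. The summed level of 9 cortical plate genes was 1750 to 2000 CPM in CDD and 1940 to 1980 CPM in ND brains, and their median on the log2 scale was -0.08. Of 8 genes of postmitotic neurons 1 was lower, *Snap25* (-0.23, adjusted p = 0.0246). Of 8 meningeal fibroblast genes 5 were lower, with *Aldh1a2* (-0.50), *Col1a1* (-0.23) and *Foxc2* (-0.42) the smallest in p-value, and 1 was higher, *Lum* (0.29), their summed level being 338 to 367 CPM in CDD and 361 to 426 CPM in ND brains. Of 7 erythroid genes, the embryonic globin genes *Hbb-y* (2.24) and *Hba-x* (1.67) were higher, while *Hba-a1* was at -0.64, *Hbb-bt* at -0.62 and *Alas2* at -0.50 without passing the threshold, and the summed level overlapped (501 to 886 CPM in CDD and 471 to 1650 CPM in ND brains). In 6 endothelial genes *Cldn5* (-0.28) was lower. *Cryaa*, a lens gene, had 5 reads in all. With each brain left out, the calls of *Nes*, *Pax6*, *Aldh1a2*, *Hbb-y* and *Cldn5* held in 8 of 8 fits, those of *Col1a1* and *Hba-x* in 6 (lost without ND replicate 1 or 3 and ND replicate 1 or 4), those of *Vim* and *Snap25* in 5 (lost without ND replicate 1, 3 or 4), that of *Foxc2* in 3 (lost without CDD replicate 1 or 4 or ND replicate 1, 3 or 4) and that of *Lum* in 1 (without CDD replicate 3). The calls of *Hba-x* and *Lum* were also lost with the replicate number as a block (adjusted p = 0.0931 and 0.0516, edgeR). Those of *Pax6*, *Cldn5*, *Snap25*, *Col1a1* and *Foxc2* were lost in at least 1 of the other settings given below. Their highest adjusted p-values were 0.0554, 0.0508, 0.0868, 0.0762 and 0.0582 (edgeR, DESeq2 or limma). The calls of *Nes*, *Vim*, *Aldh1a2* and *Hbb-y* held in all of those settings. The part of these markers in the results above was not tested.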

How the data were processed

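Whole brains of E14.5 WT embryos of CDD-fed (4 brains) and ND-fed dams (4 brains) were compared, grouped by the labels. The authors deposited raw counts per gene and brain, and FPKM values made from size-factor-scaled counts and gene length. Per the submitters' processing notes, HISAT2 2.0.5, featureCounts 1.5.0-p3 and DESeq2 1.20.0 were used, and whether reads were counted by strand is not given in the sources used here. Their fold changes and p-values were not used. Library totals were 31770217 to 43121170 counts, and the common biological coefficient of variation was 0.0814.

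Raw counts were filtered with edgeR 4.0.16 (filterByExpr), TMM-scaled and fitted with its robust quasi-likelihood test on diet alone over 19367 genes. The same fit was also run on counts simulated with known changes from the means and dispersions of these data. DESeq2 1.42.0, RLE and upper-quartile scaling, limma-voom (limma 3.58.1), no filter, a minimum of 10 counts in each brain, a replicate block, the authors' FPKM (log2 with a pseudocount of 1, limma) and each brain left out were alternatives. For log2 CPM a prior count of 2 was added. Of 27 names on several identifiers, the identifier with the most reads was used. R 4.3.3, Python 3.11.15, pandas 2.3.3, NumPy 2.4.6 and matplotlib 3.10.9 were used.

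The 6 genes and the lists of related genes were chosen with earlier results of these data known. Named are the 6 genes, each list's genes past the threshold (with over 5, the 3 smallest p-values in each direction), list genes at 0 in most brains, and the 3 genes of at least 1 mean CPM with the highest Pearson's r to each of the 6. Others were named after their values were seen. Genes of the cortical plate and eye lists past the threshold, and their counts, are not reported here.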

Additional observations from a re-analysis of the deposited data

Results flagged for a closer look

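Within each diet, the extreme value of the 4 brains was set against its nearest neighbour with Dixon's 95% limit for the gap as a share of the range. Of the 46 groups checked for the 6 genes, their 3 ratios and the changed genes of the related lists, chance alone gives about 2.3 such values, and 4 were found, all of them in CDD brains. None of the 6 genes was among them on the log2 CPM scale. The log2 ratio of *Reln* to *Trp73* was 1.6 in CDD replicate 1 and 1.98 to 2.04 in the other CDD brains. For *Lrp4*, CDD replicate 4 was at 6.36 log2 CPM and the other CDD brains at 6.05 or less. For *Nhlh2*, CDD replicate 3 was at 5.79 log2 CPM and the others at 6.03 to 6.07. For *Ccno*, CDD replicate 2 was at 0.35 log2 CPM and the others at 0.83 to 0.92.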

How the results depend on the processing

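*Calb2* was lower and past the threshold in all 8 other settings and in all 8 fits without a brain, with adjusted p-values of 5.87e-05 to 0.0452 (edgeR, DESeq2 or limma) in the former. With each brain left out, the log2 fold change lay between -0.21 and -0.08 for *Reln* (past the threshold only without CDD replicate 4), between -0.03 and 0.03 for *Vldlr*, whose sign changed without CDD replicate 3 (0.03), ND replicate 1 (0.001), ND replicate 3 (0.001) or ND replicate 4 (0.005), and between -0.06 and 0.005 for *Lrp8*. The number of the 6 genes called lower was 1 to 2. The difference of the log2 ratio of *Vldlr* to *Lrp8* lay between -0.01 and 0.07, with the sign changed without CDD replicate 2 or ND replicate 2. Over all genes, 471 to 2495 were called (204 to 1222 higher, 267 to 1273 lower), with 471 without ND replicate 3, 615 without ND replicate 4 and 688 without ND replicate 1. With the authors' FPKM, 519 were called (214 higher, 305 lower), and the cause was not tested. *Reln* was not past the threshold in the other 8 settings (adjusted p = 0.0928 to 0.310, edgeR, DESeq2 or limma). Nothing in the labels ties same-numbered brains to a litter or day. Their deviations correlated at 0.105, -0.133, 0.117 and 0.232, so that not every pair was over 0.1 and the numbers were not taken as pairs. CDD replicates 1, 3 and 4 correlated best with the ND brain of their own number and CDD replicate 2 with ND replicate 4. With the number as a block, edgeR called 1812 genes, 1 of the 6 genes among them (*Calb2*, adjusted p = 0.0111), and did not call *Gmnc* (0.0502), *Lum* (0.0516) or *Hba-x* (0.0931). The depth of the libraries limits genes under 1 CPM most, and the number of brains limits the precision of all values.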
